A study of Arabidopsis thaliana with 27 samples.

Results

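The roots of 2 Arabidopsis thaliana lines, ICT1-2 and ICT1-8098, were compared with wild-type Col-0 roots for how their transcripts responded to indole-3-carbinol (I3C). The quantity described here is the interaction at 200 µM: the I3C response of the lines, averaged over both, minus the I3C response of Col. It was computed for every gene on the log2 scale from 17 of the 26 libraries analysed, and 21180 of 34262 genes had enough counts to be tested. A positive interaction means that the lines rose more, or fell less, than Col, and a negative interaction means the opposite. Genes passed at a Benjamini-Hochberg adjusted p under 0.05 in limma, which is the meaning of "passed", "rose" and "fell" throughout, and errors of log2 values are standard errors (SE).

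I3C is released when indole glucosinolates, sulfur-containing defence compounds of the cabbage family, are broken down in damaged tissue. Applied to roots it is known as an auxin antagonist and growth inhibitor, and foreign or reactive compounds of this kind are met by detoxification enzymes such as glutathione transferases. Small heat shock proteins are chaperones that bind unfolding proteins and that are almost silent in unstressed plants, so they serve as sensitive readouts of protein stress.

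All plants were seedlings 10 days old, grown hydroponically in liquid medium, with 20 seedlings for each treatment. The medium received the solvent DMSO (the groups ending in NT) or I3C at 200 µM for 2 h, after which roots were cut off. Col is the wild type Col-0. ICT1-2 is a transgenic line from the submitting laboratory, whereas ICT1-8098 comes from a library of lines that each overexpress a full-length cDNA. Both are labelled as overexpressing the ribosomal protein S30, a part of the small ribosomal subunit, from the 35S promoter, which is active in most plant cells. Whether replicates were separate cultures is not stated, and the p-values cover only the spread among the libraries, part of which may be technical. The groups were Col_NT (replicates 3, 4 and 5), Col_200 (replicates 1, 4 and 5), ICT1-2_NT (replicates 1 and 2), ICT1-2_200 (replicates 2, 4 and 5), ICT1-8098_NT (replicates 1, 4 and 5) and ICT1-8098_200 (replicates 2, 3 and 4). Values below are given in this order of replicates. Col_400 and ICT1-2_400, treated in the same way at 400 µM, enter no group mean of the interaction and are set beside it. They do enter the shared estimate of the spread behind its p-values. The fit also held 3 Col_w libraries, from roots of Col plants whose leaves had been wounded 8 h before, which enter the estimate of the spread and no comparison here.

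The 17 libraries held 9503924 to 17433968 reads assigned to genes, at which depth 3 reads amount to 0.172 to 0.316 CPM, the count scaled to a common library total. The S30 gene RPS30A read 4961, 5672 and 6598 normalized counts in ICT1-8098_NT and 7977 to 8861 in ICT1-8098_200, above the 2094 to 3481 of the 6 Col libraries. In the libraries labelled ICT1-2 it read 2017 to 3143 and was not raised over Col, which goes against the label, so every direction given for ICT1-2 is that of the line labelled ICT1-2. Markers of shoot photosynthesis were not at 0 in these root libraries: 16 genes summed to 151 to 392 CPM in Col_NT, 187 to 568 in Col_200, 112 to 224 in the DMSO libraries of the lines and 61.1 to 73.6 in their 200 µM libraries. Markers of root hair, endodermis, vasculature and meristem were all detected in every group of the contrast. Reads could not be assigned to a strand, and 40 of the 165 genes described next share bases with another annotated gene, so reads of the overlapping pair cannot be told apart (of those described below, ERDJ3A, RBOHB, SOT18, GSTF2, ATJ10, EBF2, RCA, LHCB1.3, cPT4, AT3G01260, ATL64, AT2G39980 and AT5G07650).

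The I3C response differed between the lines and Col for 165 genes (0.779% of those tested), with 91 positive and 74 negative interactions. An unadjusted p under 0.05 was reached by 2521 of all 21180 tested genes, beside which such counts for the lists below stand. The median interaction over all genes was 0.01. Among all tested genes the I3C response passed for 28.9% in Col and 31.3% over the mean of the lines. Of the 74 negative interactions, 65 belonged to genes that rose in Col, among which 46 had a smaller rise in the lines and 19 a mean line response at or below 0. Of the 91 positive interactions, 61 belonged to genes that fell in Col, 39 of them with a smaller fall in the lines and 22 with a mean line response at or above 0. The other 37 genes did not pass in Col and passed over the mean of the lines, 28 rising and 9 falling, apart from which 2 genes rose in Col and rose more in the lines. Genes whose response passed in both with opposite signs numbered 20 among the 165. These classes use the same libraries as the interaction and are a description of it.

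The number of genes was sensitive to single libraries. It was 720 without Col_200 replicate 1 (521 positive and 199 negative), 257 without Col_NT replicate 3, 66, 67 and 70 without Col_NT replicate 4, Col_NT replicate 5 and Col_200 replicate 4, and 60 when the recovered reads were fitted with voom. It also fell by more than 1.5 times without ICT1-2_NT replicate 1 (98) or 2 (103), ICT1-2_200 replicate 2 (102) or ICT1-8098_NT replicate 4 (105). The balance turned to 42 positive and 81 negative (34.1% positive) without Col_200 replicate 5. With only the groups of the contrast in the fit the count was 87. Scaling by total reads gave 123 positive and 61 negative interactions, 66.8% positive against 55.2%, with the median of all genes moved to 0.11. Of the 165 genes, 29 passed under every one of 27 alternatives to the processing and 124 under 14 or more, so the number of alternatives passed, of 27, is given below beside genes that passed.

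**Figure D1:**
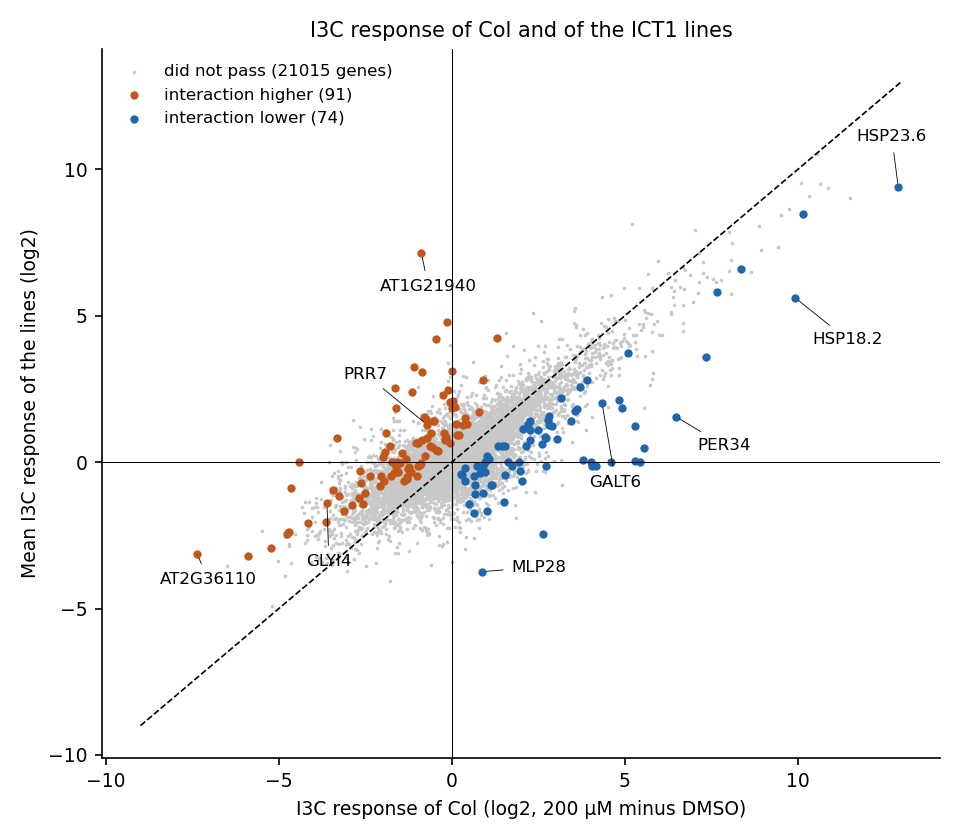
Log2 I3C response of Col (x axis, 200 µM minus DMSO) against the mean log2 response of ICT1-2 and ICT1-8098 (y axis) for 21180 genes. Points on the dashed line respond alike; the 74 genes with a negative interaction (blue) lie below it, mostly at positive Col responses, and the 91 with a positive interaction (orange) lie above it, mostly at negative Col responses.

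Among the small heat shock proteins, 14 of 15 rose with I3C in Col and 14 over the mean of the lines. Of all 21180 tested genes, 3181 rose in Col and 3729 over the mean of the lines. The median response of the list was 9.93 in Col and 8.48 in the lines. The interaction was lower for 3 of the 15, beside 0.349% of all genes, and higher for 0. Its median over the list was -1.23 and 14 of 15 estimates were below 0, with 11 at an unadjusted p under 0.05. HSP18.2, a cytosolic member, HSP17.8, also cytosolic, and HSP23.6, a mitochondrial member, were the 3 that passed. At 200 µM the lines were lower than Col for 10 of 15 (13.8% of all genes), and in DMSO they were higher for 4 (9.31%) and lower for 0 (9.22%). The count of 3 was 1 without ICT1-2_NT replicate 1, Col_200 replicate 4 or Col_NT replicate 4 and with only the groups of the contrast in the fit, and voom on the recovered reads called 0 of the 15 at a median of -1.24.

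HSP18.2 (AT5G59720, chromosome 5, 24062323 to 24063300) read 3.3, 3.86 and 7.9 normalized counts in Col_NT and 4705, 7446 and 4913 in Col_200. In ICT1-2 it read 31.1 and 36.9 in DMSO and 1462, 1639 and 1675 at 200 µM. In ICT1-8098 it read 51.6, 78.2 and 31 in DMSO and 1324, 4032 and 3449 at 200 µM. Every line library was thus above Col in DMSO and below Col with I3C. The interaction was -4.33 ± 0.43 (adjusted p = 6.75e-06), made up of a DMSO difference of 2.89 ± 0.31 and a difference of -1.44 ± 0.30 at 200 µM. It passed under 26 of 27 alternatives, all but voom (adjusted p = 0.0909).

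The 250 bases before the annotated start of HSP18.2 are printed because this gene had the most negative estimate of the list. They run from chr5:24062073-24062322 on the plus strand of TAIR10.1 (RefSeq). The search was for heat shock elements of 3 units, GAA, 2 bases of any kind, TTC, 2 bases of any kind and GAA, on either strand, which would stand in capitals.
HSP18.2: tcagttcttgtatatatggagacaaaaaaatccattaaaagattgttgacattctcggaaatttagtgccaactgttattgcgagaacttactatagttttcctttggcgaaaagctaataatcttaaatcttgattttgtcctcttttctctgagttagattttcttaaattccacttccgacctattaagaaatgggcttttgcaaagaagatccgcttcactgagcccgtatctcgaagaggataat
Elements with a changed base, or outside the 250 bases, were not searched for. The window held 0 exact matches. They were present in the windows of 2 of 15 small heat shock protein genes, in 1 of 74 genes with a negative interaction, in 1 of 91 with a positive interaction and in 0.413% of 21046 windows of tested genes.

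HSP23.6 (AT4G25200) read 0.82, 0 and 1.76 normalized counts in Col_NT and 9838, 18196 and 12439 in Col_200. In the lines it read 1.88 to 18.3 in DMSO, and at 200 µM 3781, 3473 and 2963 in ICT1-2 and 1616, 7900 and 8190 in ICT1-8098. All 6 treated line libraries were below all 3 of Col, with ICT1-8098_200 replicate 2 the lowest. Its interaction was -3.51 ± 0.76 (adjusted p = 0.0286, 19 of 27 alternatives), made up of 1.80 ± 0.55 in DMSO and -1.71 ± 0.53 at 200 µM. With Col_NT this low, the DMSO part depends on the count of 1 added before taking logs. Over the alternatives the estimate ran from -4.14 to -2.54. HSP17.8 (AT1G07400) rose from 16.2 to 21.1 in Col_NT to 19097 to 26328 in Col_200, and the treated lines read 5690 to 17580, again below Col without overlap. Its interaction was -1.67 ± 0.37 (adjusted p = 0.0323, 17 of 27).

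The larger chaperones and heat shock factors rose with I3C in Col for 21 of 22 (3181 of all 21180 genes) and over the lines for 22 (3729). The interaction was called for 0 of the 22 by limma, with a median of -0.34 and 4 at an unadjusted p under 0.05. HSFA2, the factor that sustains the heat shock response, had an interaction of -1.17 ± 0.36 (adjusted p = 0.153). HSP60-2, a mitochondrial chaperonin outside that list and chosen here after its values were seen, read 1298 to 1699 in Col_NT, 2339 to 3319 in Col_200 and 920 to 1449 in the treated lines (interaction -0.95 ± 0.18, adjusted p = 0.012, 25 of 27). The DMSO level of the lines is not given for it, so these ranges do not show how the lines responded. ERDJ3A, a DnaJ-domain co-chaperone of the endoplasmic reticulum, rose from 16.5 to 29.9 to between 3353 and 6021 in Col and from 37 to 60.2 to between 1480 and 4232 in the lines. It overlaps AT3G08960. Its groups did not overlap in DMSO and overlapped at 200 µM, and its interaction was -1.87 ± 0.35 (adjusted p = 0.0115, 24 of 27). It was the 1 gene called of 13 in the unfolded protein response list, whose median was -0.02, turning to 0.08 when scaled by total reads.

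Other genes rose strongly in Col and less, or not, in the lines. GALT6 (AT5G62620), which adds galactose to arabinogalactan proteins of the cell wall, read 129, 168 and 181 normalized counts in Col_NT and 2516, 4618 and 2870 in Col_200. In the lines it read 151 to 243 in DMSO and 536 to 1222 at 200 µM. The treated lines lay below treated Col without overlap, and DMSO levels overlapped with ICT1-8098 but not with ICT1-2. The interaction was -2.33 ± 0.28 (adjusted p = 9.29e-05) and it passed under 27 of 27 alternatives.

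BGLU10, of the beta-glucosidase family, had the same form, with 219 to 267 in Col_NT, 2375 to 3943 in Col_200, 322 to 403 in the lines in DMSO and 1012 to 1629 in the treated lines (interaction -1.80 ± 0.23, adjusted p = 0.000235, 27 of 27). ABCG40, a plasma membrane transporter known to import abscisic acid, reached 12866, 27157 and 16867 in Col_200 from 44.8 to 63.4, and 4125 to 10254 in the treated lines from 49.1 to 105. Its interaction was -1.75 ± 0.37 (adjusted p = 0.0233, 22 of 27). It was the 1 of 6 genes called in the list of camalexin and related indoles, whose median was 0.46 (1.08 in ICT1-2 and -0.27 in ICT1-8098). ACA13, a calcium pump of the autoinhibited type, read 421, 916 and 442 in Col_200 from 9.89 to 23.2, and 82.6 to 288 in the treated lines from 23.2 to 84.7 (interaction -3.09 ± 0.56, adjusted p = 0.0075, 26 of 27). In all 3 genes the treated lines were below treated Col without overlap.

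ASY2, a protein of the meiotic chromosome axis, read 32.1, 43.3 and 22 normalized counts in Col_NT and 725, 290 and 412 in Col_200. The lines read 76.7 to 171 in DMSO and 86.7 to 170 at 200 µM, so they were above Col without I3C and below it with I3C. The interaction was -3.70 ± 0.48 (adjusted p = 0.000235, 27 of 27). PCFS5, a homolog of an mRNA cleavage factor, also rose in Col, from 117 to 289 to between 945 and 2130. It read 683 to 820 in treated ICT1-2 against 644 and 735 in DMSO, and reached 385 to 483 from 133 to 181 in ICT1-8098. Its interaction passed over the mean (-2.27 ± 0.32, adjusted p = 0.000438, 27 of 27) and in ICT1-2 (-2.92, adjusted p = 0.000312), while in ICT1-8098 it was -1.61 (adjusted p = 0.0576).

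PER34 (AT3G49120), a cell wall peroxidase, had a large interaction of another form. It read 4.94, 0 and 3.51 normalized counts in Col_NT and 228, 277 and 301 in Col_200, but 1370 to 2971 in the lines in DMSO and 4983 to 7429 at 200 µM. It rose in both, by 6.48 in Col and by 1.55 over the lines, and every line library was above every Col library. The interaction was -4.94 ± 0.50 (adjusted p = 6.75e-06, 27 of 27). With Col_NT this low its size depends on the added count of 1, and it ran from -5.53 to -3.63 over the alternatives. The closely similar gene PER33, close by on chromosome 3, rose by 5.36 in Col and had an interaction of -1.72 (adjusted p = 0.31), and reads of the pair may have been shared between them. AT2G13965 and AT5G49440 were likewise high in every line library (203 to 295 and 2195 to 4018) and low in Col, where they read 0.82 to 1.55 and 0 to 0.88 in DMSO and 9.23 to 21.8 and 3.69 to 6.04 at 200 µM. Their interactions of -2.84 ± 0.38 and -2.29 ± 0.51 rest on a Col rise at these low levels (27 and 14 of 27 alternatives).

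**Figure D2:**
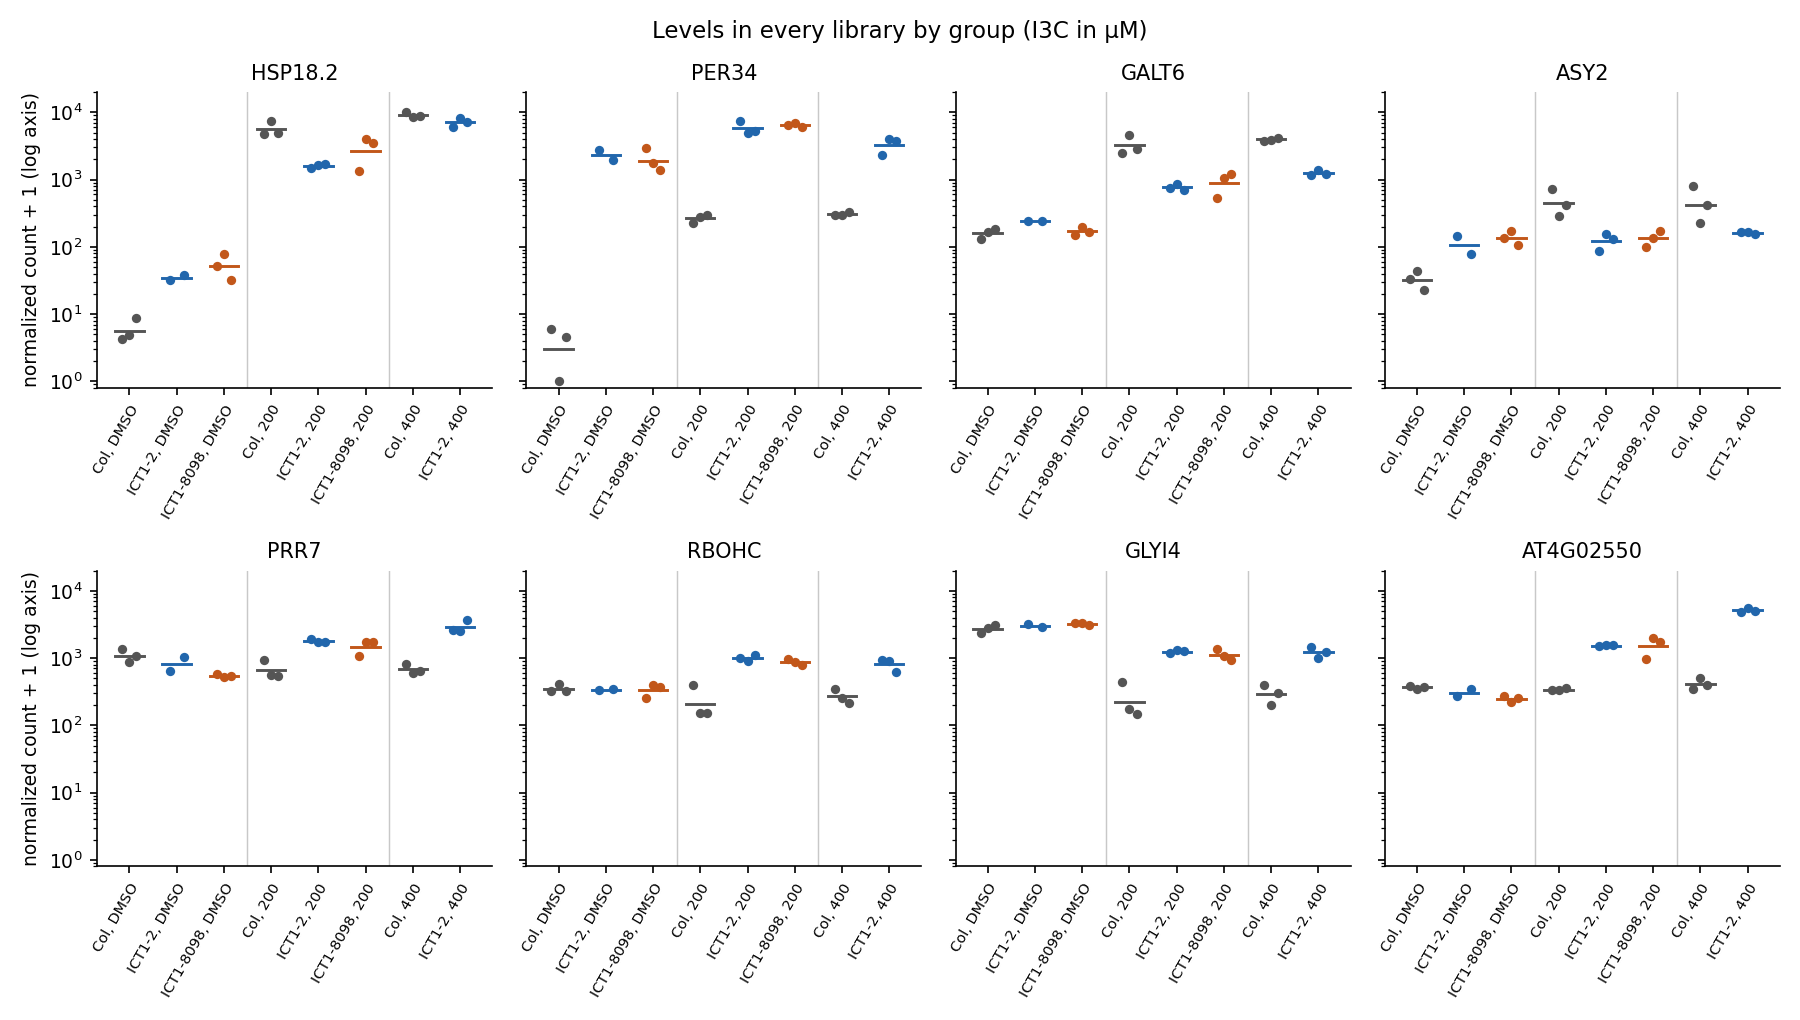
Normalized count plus 1 (log axis) of 8 genes in each library of Col, ICT1-2 and ICT1-8098 in DMSO and at 200 and 400 µM I3C; points are libraries and bars are means of the log2 values. HSP18.2, GALT6 and ASY2 are below Col in all 6 treated line libraries at 200 µM, PRR7, RBOHC, GLYI4 and AT4G02550 are above it, and PER34 is above Col in every line library.

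Genes that I3C lowered in Col included several whose fall was smaller in the lines. GLYI4 (AT1G15380), of the glyoxalase family that removes reactive carbonyls, read 2379, 2778 and 3120 normalized counts in Col_NT and 437, 174 and 147 in Col_200. The lines read 2884 to 3336 in DMSO and 930 to 1374 at 200 µM. Levels overlapped in DMSO and did not with I3C, and the interaction was 2.2 ± 0.34 (adjusted p = 0.00172, 27 of 27). AT2G36110 read 112, 173 and 227 in Col_NT and 0 in all 3 libraries of Col_200, which is at least 41.2-fold lower when 3 reads per library stand for 0. In the treated lines it kept 6.81 to 23.8 from 66 to 226 in DMSO (interaction 4.21 ± 0.57, adjusted p = 0.000299, 26 of 27), an estimate that depends on the added count of 1.

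ATL64, of a family of RING-type ubiquitin ligases, read 178, 179 and 161 in Col_NT and 35.7, 11.1 and 8.46 in Col_200, against 66.4 to 150 and 38.9 to 60.9 in the lines. The lines lay below Col in DMSO and above it with I3C (interaction 2.49 ± 0.42, adjusted p = 0.00433, 27 of 27). AT3G14260 read 391 to 560 in Col_NT and 9.67 to 38.9 in Col_200, and it read 41.3 to 82.1 in the treated lines, without overlap (2.29 ± 0.50, adjusted p = 0.0286, 16 of 27). Its means in DMSO were 308 in ICT1-2 and 442 in ICT1-8098 against 495 in Col. AT3G01260 and AT2G22122 fell likewise, to between 8.46 and 41.1 and between 14.5 and 88.7 in Col_200, but overlapped with the treated lines at 39.1 to 105 and 79 to 185. Their interactions of 2.65 ± 0.61 (adjusted p = 0.0399) and 2.31 ± 0.54 (adjusted p = 0.0415) passed under 13 and 9 of 27 alternatives.

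PHO1 (AT3G23430), which loads phosphate into the xylem, fell from 12975, 7524 and 8166 normalized counts to 1763, 904 and 1205 in Col. In the lines it fell from between 5400 and 8611 to between 2136 and 2968, above treated Col without overlap. Its interaction was 1.42 ± 0.27 (adjusted p = 0.0114, 26 of 27), and it was the 1 gene called of 16 in the list of nitrate, anion and phosphate transport, with a list median of 0.66 and 6 at an unadjusted p under 0.05, all positive. RBOHB, an NADPH oxidase, read 417 to 492 in Col_NT, 70.1 to 129 in Col_200, 453 to 709 in the lines in DMSO and 260 to 434 in the treated lines (interaction 1.26 ± 0.26, adjusted p = 0.0228, 23 of 27), and it shares bases with AT1G09100. JAR1, which conjugates jasmonate to isoleucine, fell by 1.30 in Col with an interaction of 0.79 ± 0.18 (adjusted p = 0.0365, 13 of 27). It was lower in the lines in DMSO (-0.57, adjusted p = 0.00311), and its difference at 200 µM did not pass (0.23, adjusted p = 0.177). It was the 1 gene called of 21 in the jasmonate list, whose median was -0.06, turning to 0.04 when scaled by total reads.

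The aliphatic glucosinolate pathway makes the methionine-derived class of these defence compounds. It fell with I3C in Col for 13 of 15 genes (13.9% of all genes) and over the mean of the lines for 15 (13.7%). The median response was -3.11 in Col and -2.04 in the lines. In DMSO the lines were already lower than Col for 4 (9.22% of all genes) and higher for 0 (9.31%), with a median of -0.67. At 200 µM they were higher for 5 (14.8%) and lower for 2 (13.8%), with a median of 0.47. The interaction was higher for 3, beside 0.43% of all genes, and lower for 0, with a list median of 1.28 and 10 positive estimates and 1 negative at an unadjusted p under 0.05. The negative one was CYP79F1 (-2.96, adjusted p = 0.117), the paralog of CYP79F2 with which it may share reads. MAM3, an enzyme of methionine chain elongation, fell from 8644, 5599 and 5497 normalized counts to 856, 410 and 393 in Col, and from between 3572 and 4555 to between 571 and 1374 in the lines. The treated groups overlapped and its interaction was 1.6 ± 0.36 (adjusted p = 0.0368, 13 of 27).

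CYP79F2, which makes the aldoximes of long-chain compounds, read 170, 114 and 39.9 in Col_200 and 196 to 462 in the treated lines, without overlap (interaction 2.08 ± 0.47, adjusted p = 0.0342, 16 of 27). Its means in DMSO were 881 in ICT1-2 and 1240 in ICT1-8098 against 1670 in Col. SOT18, a sulfotransferase of the last step of the core pathway, had an interaction of 1.45 ± 0.30 (adjusted p = 0.0209, 23 of 27). It was lower in the lines in DMSO (-0.93, adjusted p = 0.00347), and its difference at 200 µM did not pass (0.52, adjusted p = 0.0626). MYB28, the main activator of the pathway, had an estimate of 1.64 (adjusted p = 0.157). The count of 3 was 7 without Col_200 replicate 1, 0 without Col_200 replicate 4, Col_200 replicate 5 or Col_NT replicate 4 and with only the groups of the contrast, and 1 without ICT1-2_200 replicate 2 or 4, ICT1-2_NT replicate 1 or 2, ICT1-8098_NT replicate 4 or Col_NT replicate 5. In the indole branch 0 of 22 genes were called by limma, with 4 at an unadjusted p under 0.05 and a median of 0.30. Its activators MYB122 and MYB51 had estimates of 2.03 (adjusted p = 0.106) and 1.45 (adjusted p = 0.122).

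A further set rose with I3C over the mean of the lines while no rise passed in Col. AT4G02550 (chromosome 4, 1120365 to 1122223) read 386, 348 and 371 normalized counts in Col_NT and 332, 330 and 354 in Col_200. It read 220 to 349 in the lines in DMSO, 1496, 1540 and 1553 in ICT1-2_200 and 951, 2000 and 1758 in ICT1-8098_200. The Col groups overlapped, whereas both lines rose above all of their DMSO libraries. The interaction of 2.57 ± 0.23 (adjusted p = 1.72e-06) passed under 27 of 27 alternatives. EMB3111 rose in the lines from 11.7 to 54.6 to between 215 and 965, against 9.89 to 32.5 and 42.2 to 56.8 in Col (interaction 2.96 ± 0.61, adjusted p = 0.0211, 21 of 27). Its Col groups did not overlap, and its Col response of 1.29 was just short of the threshold (adjusted p = 0.0508).

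RBOHC (AT5G51060), the NADPH oxidase known for root hair growth, read 323, 404 and 328 in Col_NT and 391, 151 and 149 in Col_200. The lines read 256 to 398 in DMSO and 775 to 1111 at 200 µM. The lines and Col overlapped in DMSO and did not with I3C, and Col_200 replicate 1 stayed at its DMSO level. The interaction was 2.23 ± 0.35 (adjusted p = 0.00172, 27 of 27). Of 7 root hair markers, 0 were called and 0 had an unadjusted p under 0.05, their median interaction was 0.18, and they summed to 19.6 to 66.4 CPM in the treated lines and 13.3 to 54.1 in Col_200.

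RFS5, a raffinose synthase, read 596 to 876 in Col_NT, 492 to 723 in Col_200, 511 to 794 in the lines in DMSO and 1012 to 1610 in the treated lines (interaction 1.22 ± 0.21, adjusted p = 0.00538, 27 of 27). GSTF2, a glutathione transferase known to bind indole compounds, read 2914 to 5835 in Col_NT and 3429 to 4749 in Col_200, but rose from 1069 to 2821 to between 4530 and 7948 in the lines. Its interaction was 2.12 ± 0.48 (adjusted p = 0.0368, 15 of 27), and it shares bases with AT4G02510. It was the 1 gene called of 37 tested in the detoxification list, whose median interaction was -0.25. In that list 30 genes rose in Col (3181 of all 21180 genes) and 34 over the lines (3729).

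Of 12 clock genes 2 had a higher interaction (0.43% of all genes did) and 0 a lower (0.349%). The list's median was 0.50, with 5 positive estimates and 1 negative at an unadjusted p under 0.05. PRR7 (AT5G02810), a repressor in the morning part of the clock, read 1366, 859 and 1082 normalized counts in Col_NT and 938, 565 and 534 in Col_200. In the lines it read 525 to 1025 in DMSO, 1944, 1722 and 1714 in ICT1-2_200 and 1086, 1714 and 1723 in ICT1-8098_200. It fell in Col and rose in both lines, and the treated groups did not overlap. The interaction was 2.00 ± 0.29 (adjusted p = 0.000606, 27 of 27).

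The window before the start of PRR7 is shown because this gene had the highest estimate of the clock list. It lies at chr5:642031-642280 and is written from the minus strand (TAIR10.1, RefSeq), with G-boxes, CACGTG on either strand, in capitals.
PRR7: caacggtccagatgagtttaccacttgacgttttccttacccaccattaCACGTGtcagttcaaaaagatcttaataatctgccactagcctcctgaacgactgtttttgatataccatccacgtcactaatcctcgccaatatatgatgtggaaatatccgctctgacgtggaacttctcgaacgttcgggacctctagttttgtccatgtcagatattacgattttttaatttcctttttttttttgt
It held 1 G-box, 196 bases before the start. G-boxes were found in 7.69% of the windows of genes with a positive interaction, 9.46% of those with a negative interaction and 7.16% of all tested genes. The evening element AAAATATCT, searched on either strand, was in 2.2%, 1.35% and 2.4% of them. In the clock list G-boxes were in 6 of 12 windows and evening elements in 3 of 12.

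ELF4, a component of the evening complex of the clock, fell in Col from 1186, 968 and 762 to 452, 378 and 392. In the lines it read 746 to 1493 in DMSO and 666 to 1272 with I3C, so that only the treated groups lay apart (interaction 1.08 ± 0.21, adjusted p = 0.012, 27 of 27). Of the other members, PRR9 had an estimate of 1.33 (adjusted p = 0.314), LUX 0.60 (0.175) and TOC1 0.46 (0.173), while CCA1 had -1.30 (0.217), all 4 adjusted p values above the threshold. SPA1, a partner of the ubiquitin ligase COP1 and not in the list, had an interaction of 0.95 ± 0.18 (adjusted p = 0.00976, 27 of 27), with 538 to 698 in the lines in DMSO and 891 to 1235 with I3C against 635 to 934 over all Col libraries. All samples were collected together, per the labels, and the cause of the differences in these genes was not tested.

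For some genes the lines already differed in DMSO. Over all genes the lines and Col differed for 18.5% in DMSO (9.31% higher, 9.22% lower) and 28.6% at 200 µM (14.8% higher, 13.8% lower). Of the 165 genes, 40 passed between the lines and Col in DMSO only (6.35% of all tested genes), 83 at 200 µM only (16.4%) and 42 in both (12.2%). Opposite signs were held by 20 of the latter (0.0944% of all tested genes). The interaction is the 200 µM difference minus the DMSO difference, so these classes are a description of it. ATJ10, a DnaJ-domain protein, read 718, 852 and 743 in Col_NT and 163 to 250 in the lines in DMSO, but 1144 to 1732 and 853 to 1700 with I3C. It rose in both, further in the lines (interaction 1.87 ± 0.29, adjusted p = 0.00181, 27 of 27), and it overlaps AT1G76690 and AT1G09637. EBF2, an F-box protein that removes the ethylene factor EIN3, read 828 to 1018 in Col_NT and 304 to 690 in the lines in DMSO, and 596 to 665 and 650 to 808 with I3C (interaction 1.1 ± 0.21, adjusted p = 0.0134, 27 of 27). It was the 1 gene called of 15 in the ethylene list, whose median was 0.35.

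Iron deficiency genes shared that form as a list. In DMSO the lines were lower than Col for 15 of 20 (9.22% of all genes) and higher for 1 (9.31%), with a median difference of -1.53. At 200 µM they were lower for 4 (13.8%) and higher for 0 (14.8%), with a median of -0.28. The list fell in Col for 10 (2939 of all 21180 genes) and rose for 2 (3181), with a median of -1.26. Over the lines it fell for 7 (2895) and rose for 5 (3729), with a median of 0.03. The interaction was higher for 1 gene and lower for 0, with a median of 0.87 and 11 positive estimates at an unadjusted p under 0.05. BHLH39, a transcription factor that turns on iron uptake, was that gene: it read 633, 1655 and 1419 in Col_NT, 842, 229 and 143 in Col_200, 192 to 319 in the lines in DMSO and 312 to 1008 with I3C. Col_NT replicate 3 was the lowest of its group and Col_200 replicate 1 the highest of its own, and the interaction was 2.93 ± 0.61 (adjusted p = 0.0228, 23 of 27). AT3G02480 read 269, 382 and 569 in Col_NT, 48.3 to 288 in Col_200 and 15.8 to 30 in the lines in DMSO. With I3C it read 31.9 to 45.9 in ICT1-2 and 93.2 to 323 in ICT1-8098, and its interaction passed over the mean (3.45 ± 0.69, adjusted p = 0.016, 25 of 27) and in ICT1-8098 (4.81, adjusted p = 0.00401), with 2.09 in ICT1-2 (adjusted p = 0.284).

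AT2G39980 and AT5G07650 were also lower in the lines in DMSO, at 21.7 to 60.2 against 111 to 256 and at 126 to 172 against 345 to 426. With I3C both overlapped with Col, and their interactions were 2.35 ± 0.47 (adjusted p = 0.0165, 22 of 27) and 2.35 ± 0.39 (adjusted p = 0.00311, 27 of 27).

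**Figure D3:**
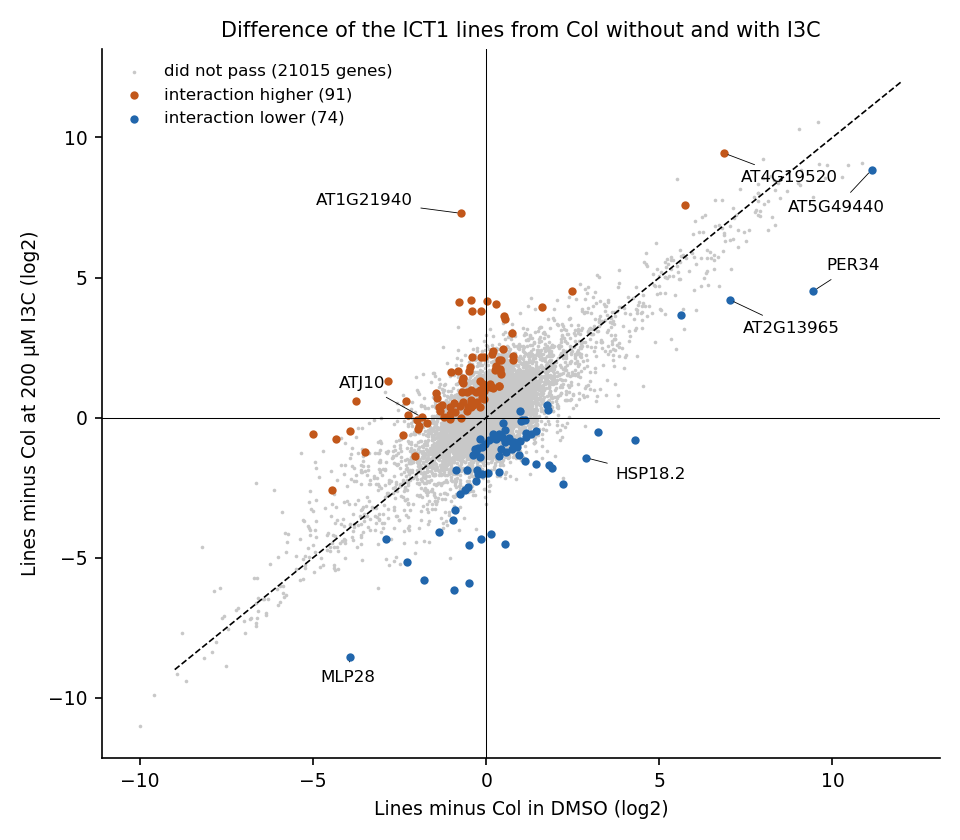
Log2 difference of the lines from Col in DMSO (x axis) and at 200 µM I3C (y axis) for 21180 genes; a gene on the dashed line keeps its difference, and the vertical distance from it is the interaction. ATJ10 lies near 0 on the y axis after a negative DMSO difference, HSP18.2 changes sign, and PER34 and AT4G19520 differ from Col in both conditions.

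A small set was without reads, or nearly so, in the lines or in Col. AT1G21940 (chromosome 1, 7715170 to 7716975) read 145, 115 and 139 normalized counts in ICT1-2_200 and 149, 222 and 185 in ICT1-8098_200, a mean of 159 ± 38.4 (SD, n = 6), and 0 in all 3 libraries of Col_200. That is at least 38.5-fold higher, with 3 reads per library standing for 0. In DMSO it was at 0 to 0.94 in the lines and 0 to 2.32 in Col. AT4G19520 was present in the lines already in DMSO, at 91.1 to 222, rose to between 508 and 975, and was at 0 or 0.77 in the 6 Col libraries (at least 172-fold higher at 200 µM, 26 of 27).

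In the other direction, AT5G12090 read 45.4, 97.8 and 47.1 in Col_200 and 0 to 1.76 in Col_NT, and had no read in any of 11 line libraries. Treated Col was at least 23.0-fold higher than the treated lines. AT2G12190 read 91.9, 114 and 105 in Col_200 and at most 1.7 in the lines. BOB2, related to a chaperone of the NudC family and chosen after its values were seen, read 37.8 to 70.1 in Col_200, 2.32 to 2.63 in Col_NT and 0 in all 11 line libraries (23 of 27). Among the 165 genes, 3 had no read in any of the 11 line libraries and 2 had none in the 6 Col libraries, and among all tested genes 18 and 79. The size of a fitted interaction at such levels depends on the added count of 1, and AT1G21940 and AT2G12190 passed under 27 and AT5G12090 under 26 of 27 alternatives.

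Photosynthesis genes formed the list with the lowest median. None of its 16 members passed the I3C response of Col (median 0.69), 12 fell over the mean of the lines (median -1.09, beside 13.7% of all genes), and at 200 µM all 16 were lower in the lines than in Col (median -2.77, beside 13.8%). The interaction was lower for 2, beside 0.349%, with a median of -1.83 and 14 of 16 at an unadjusted p under 0.05. The count of 2 was 8 without Col_NT replicate 3, 6 without Col_200 replicate 5, 1 without ICT1-8098_200 replicate 2 or 4, 0 without any other of the 17 libraries, and 0 with total-read scaling, no filter on low values, only the groups of the contrast, or voom. PSBO1, of the oxygen-evolving complex, read 574, 304 and 219 in Col_NT, 863, 581 and 318 in Col_200, 207 to 358 in the lines in DMSO and 106 to 171 with I3C (interaction -1.78 ± 0.42, adjusted p = 0.0415, 9 of 27). RCA, the activase of Rubisco, had -1.96 ± 0.46 (adjusted p = 0.0448, 6 of 27). Outside the list, the aldolase FBA2 (-2.68 ± 0.62, adjusted p = 0.0378, 14 of 27) and the antenna protein LHCB1.3 (-2.40 ± 0.56, adjusted p = 0.0429, 9 of 27) and the Mg-chelatase subunit CHLH (-1.96 ± 0.37, adjusted p = 0.0115, 26 of 27) were also lower, CHLH having been chosen after its values were seen. The summed markers ranged from 187 to 568 CPM within Col_200, and the part that shoot tissue had in these 5 results was not tested. In bulk tissue, fewer cells of a type and less RNA per cell cannot be told apart.

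The remaining lists gave few or no calls, and counts of 0 here are from limma. The interaction was called for 0 of 22 oxidative stress genes (6 at an unadjusted p under 0.05), 0 of 17 sulfur deficiency genes (4), 0 of 22 abscisic acid genes (1), 0 of 23 auxin response genes (4), 0 of 15 salicylate genes (4), 0 of 18 WRKY factors (2), 0 of 13 cytokinin genes (1), 0 of 14 cell wall loosening genes (0) and 0 of 14 cell cycle genes (0). Their medians lay between -0.16 and 0.23. For some lists a mean near 0 covers medians of opposite sign in ICT1-2 and ICT1-8098. In the lists just given, these were 0.55 and -0.40 for sulfur deficiency, -0.40 and 0.59 for abscisic acid and -0.46 and 0.39 for WRKY factors. They were -0.21 and 0.39 for salicylate and 0.12 and -0.13 for cytokinin. For cell wall loosening they were -0.13 and 0.37, and for the cell cycle 0.23 and -0.19. Of the sulfur genes, APR1 passed in ICT1-2 (1.58, adjusted p = 0.0209) and not in ICT1-8098 (-0.10, adjusted p = 0.933). LSU3 passed in ICT1-8098 (-2.49, adjusted p = 0.0487) and not in ICT1-2 (-1.34, adjusted p = 0.331). Marker lists of root hair (0.18), endodermis and suberin (0.49), vasculature (0.20) and meristem and cap (-0.19) held 0 called genes, with 0, 1, 1 and 1 at an unadjusted p under 0.05. Among ribosomal proteins selected by name 0 of 198 were called, with a median of -0.25 and 14 at an unadjusted p under 0.05. The estimate was above 0 for only 18 of the 198. Responses were above 0 for 178 in Col and 109 over the lines. At 200 µM the lines were lower than Col for 132 (13.8% of all genes) and higher for 5 (14.8%). The 3 S30 genes RPS30A, AT4G29390 and AT5G56670 had interactions of 0.16, -0.20 and -0.36 (adjusted p = 0.862, 0.783 and 0.547). The cell cycle median of -0.02 turned to 0.09 when scaled by total reads. Voom called no gene outside the 165 and so 0 in each of these lists.

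**Figure D4:**
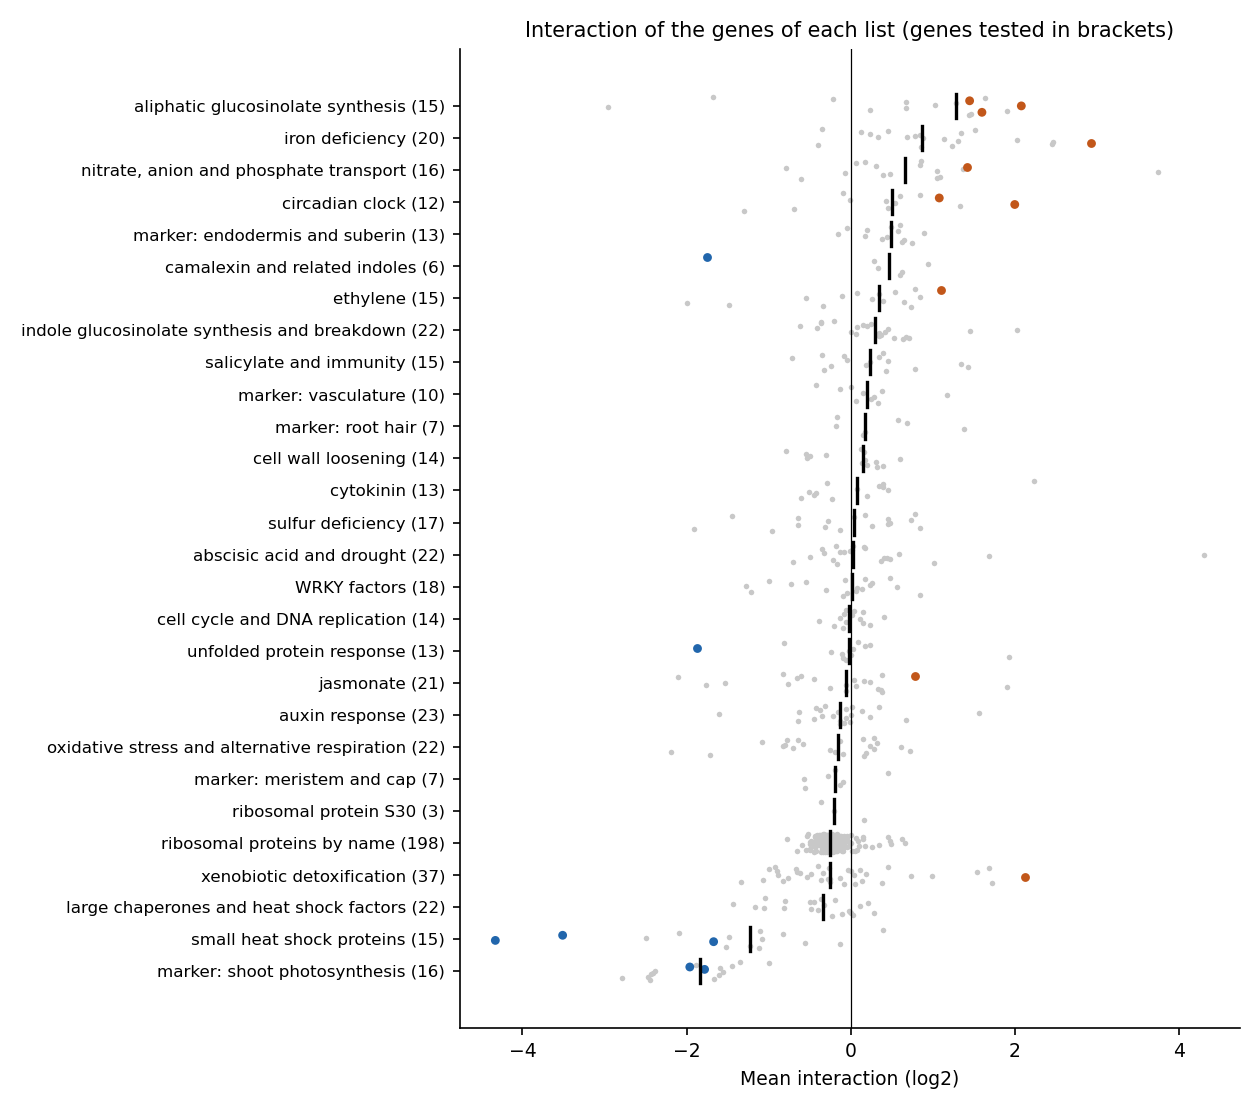
Mean log2 interaction of each tested gene (points, x axis) by list, ordered by the list median (black bar), with the number of genes tested in brackets. Coloured points passed, orange higher and blue lower; shoot photosynthesis and small heat shock proteins have the lowest medians (-1.83 and -1.23) and aliphatic glucosinolate synthesis and iron deficiency the highest (1.28 and 0.87).

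Taken line by line, the interaction passed for 144 genes in ICT1-2 (0.68%; 71 higher, 0.335%, and 73 lower, 0.345%) and 56 in ICT1-8098 (0.264%; 31 higher, 0.146%, and 25 lower, 0.118%). Of the 165 genes of the mean, 93 passed in ICT1-2, 51 in ICT1-8098, 35 in both and 56 in neither. The 2 estimates share the Col libraries. For HSP18.2 they were -4.42 and -4.24, for PER34 -5.15 and -4.73, for AT4G02550 2.43 and 2.70, for PRR7 1.85 and 2.15 and for GLYI4 2.33 and 2.07, each passing in both. MLP28, of the major latex protein family, had -6.36 (adjusted p = 0.012) and -2.87 (adjusted p = 0.392), and its mean interaction of -4.62 passed under 20 of 27 alternatives. It read 105 and 125 in ICT1-2_NT, 2.82 to 35.2 in ICT1-8098_NT, 0 to 4.8 in the treated lines and 341 to 611 in Col_NT, with 2562, 452 and 591 in Col_200.

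The responses of the lines were compared directly as well. Between ICT1-8098 and ICT1-2 the I3C response differed for 4 genes (0.0189%), none of them among the 165. An unadjusted p under 0.05 was reached by 26 of the 165 (15.8%), a larger share than the 8.33% of all tested genes. The 4 were CML37, a calmodulin-like protein, the glutaredoxin GRX480, the kinase OXI1, which acts in oxidative signalling, and the zinc finger factor ZAT12. All rose with I3C in every line and rose more in ICT1-8098, by 3.14 ± 0.49, 2.26 ± 0.38, 1.65 ± 0.28 and 1.99 ± 0.34 (adjusted p = 0.0335, 0.0392, 0.0392 and 0.0392). CML37 read 152 and 218 in ICT1-2_NT but 15.8 to 22.6 in ICT1-8098_NT, while treated libraries overlapped at 3466 to 4175 and 2933 to 4633. For all 4 genes the DMSO libraries of ICT1-8098 lay below those of ICT1-2 and of Col. The count of 4 was 0 without any of ICT1-2_200 replicate 2 or 4, ICT1-2_NT replicate 1 or 2, ICT1-8098_200 replicate 3 or ICT1-8098_NT replicate 4, 1 without ICT1-8098_NT replicate 1, and 10, 14 and 20 without ICT1-8098_200 replicate 2, ICT1-2_200 replicate 5 and ICT1-8098_200 replicate 4.

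At 400 µM, in libraries that enter the interaction only through the estimate of the spread, ICT1-2 differed from Col for 5510 genes (26%). Of the 165 genes, 125 had passed between the lines and Col at 200 µM and 111 passed at 400 µM. The 98 that passed in both with the same sign made up 78.4% of the former and 88.3% of the latter, and 1 gene had opposite signs, CYP79F2, which read 36.1 to 74.5 in ICT1-2_400 and 70.3 to 160 in Col_400 (-1.09, adjusted p = 0.0347). Over all tested genes, 3180 passed in both with the same sign, 52.5% of 6054 and 57.7% of 5510. All these p-values share 1 estimate of the spread per gene, so the larger shares among the 165 are not independent of their selection. AT4G02550 read 4863 to 5457 in ICT1-2_400 against 350 to 503 in Col_400, PRR7 2550 to 3663 against 591 to 828, and GALT6 1179 to 1386 against 3797 to 4208, none of which overlapped.

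The lines were lower than Col at 200 µM for all 3 small heat shock protein genes described above, by differences of -1.44 (HSP18.2), -1.71 (HSP23.6) and -0.86 (HSP17.8), and the difference of ICT1-2 from Col did not pass at 400 µM. These are differences at 1 dose, not interactions. HSP18.2 read 5974, 8336 and 7237 in ICT1-2_400 and 10165, 8500 and 8859 in Col_400, a difference of -0.36 ± 0.35 (adjusted p = 0.475), still without overlap. HSP23.6 read 8742, 14113 and 12996 against 12664, 12878 and 12220 (-0.10, adjusted p = 0.92), and HSP17.8 24549, 29703 and 33547 against 21225, 17671 and 17565 (0.63, adjusted p = 0.123). At 400 µM HSP18.2 was thus below Col, HSP23.6 overlapped with it and HSP17.8 was above it. ICT1-8098 was not treated at 400 µM, and neither the interaction at 400 µM nor the change between doses was tested here.

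The authors' deposited table lists 123 genes as up regulated primed and 169 as down regulated primed. Of the former 13 had a lower interaction and 0 a higher, with a median of -0.49, and of the latter 14 had a higher and 0 a lower, with a median of 0.53. Those lists were chosen on these libraries, so their direction here is not independent. Members described above include HSP18.2, PER34, ASY2, ERDJ3A and cPT4, and in the other list BHLH39, EBF2, SOT18 and JAR1. cPT4, a cis-prenyltransferase, read 0.82 to 7.03 in Col_NT and 621 to 698 in Col_200, and 17.1 to 64.8 and 305 to 822 in the lines (interaction -3.74 ± 0.53, adjusted p = 0.000551, 26 of 27). Its treated groups overlapped, and it shares bases with AT5G58780. With Col_NT this low the size of its interaction depends on the added count of 1, and it ran from -4.22 to -2.85 over the alternatives.

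**Figure D5:**
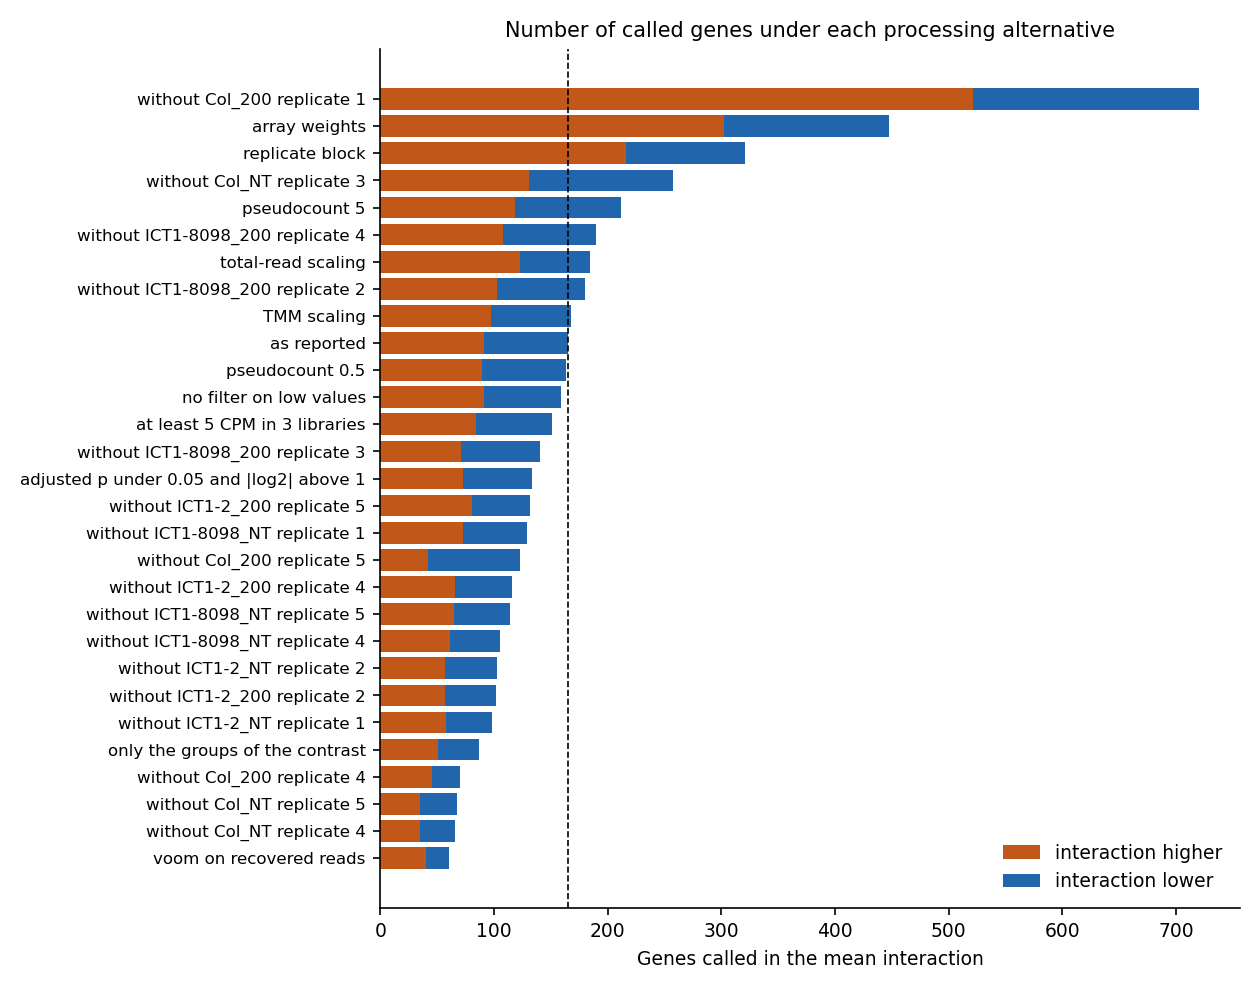
Number of genes called in the mean interaction (x axis, bars from 0) under each alternative, divided into higher (orange) and lower (blue) interactions; the dashed line marks the 165 as reported. The count ran from 60 with voom to 720 without Col_200 replicate 1.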

How the data were processed

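RNA from cut roots was made into libraries with an unstranded kit, per the labels' protocols. The authors deposited 1 table in which each cell packs the normalized counts of all replicates of a group, so these values were unpacked by the replicate numbers in the column names. They are read counts divided by size factors, and 100% of them came out as whole reads (within 0.1 reads) in every library. The submitters' processing notes name TopHat2 2.1.0, HTSeq 0.6.1, DESeq2 1.18.1 and TAIR10, with no role or order. ICT1-2_NT replicate 5 was not analysed here. The fit was limma 3.58.1 in R 4.3.3 on log2(normalized count + 1), with 1 mean per group over 26 libraries (Col_400, ICT1-2_400 and Col_w included), moderated variances with a trend, and genes that reached 10 normalized counts in 3 libraries or more. Fold changes are on that scale and understate those of low genes. Tests were two-sided with Benjamini-Hochberg adjustment over 21180 genes, and the scripts were tested on simulated data. Floors and counts cover counting error only.

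Described genes are the 12 with the largest estimates in each direction at a mean of at least 5 CPM, the S30 genes, members of gene lists that passed or else had the smallest p, the genes with the smallest p in both lines, and the 4 with the smallest p between lines. Others described (among them BGLU10, PCFS5, GLYI4, RBOHB, RBOHC, RFS5, SPA1, ATJ10, AT2G12190, HSP60-2, BOB2, CHLH) were chosen after their values were seen. The members and lists were chosen with earlier results of these data known. The authors' own lists of primed genes, deposited as gene IDs, were used as lists only. Within groups, libraries correlated at a Spearman rho of 0.962 or more and no library was a copy of another. Same-numbered libraries did not deviate together (r from -0.241 to 0.203, over 0.1 for 5 of 23 pairs).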

Additional observations from a re-analysis of the deposited data

Results flagged for a closer look

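The tested difference between the I3C responses of the lines and of Col passed for 165 genes, which is what marks them for a closer look. Among the genes chosen by rule, the log2 interactions above 0 were AT1G21940 8.01, AT2G36110 4.21, AT3G02480 3.45, EMB3111 2.96, BHLH39 2.93, AT3G01260 2.65, AT4G19520 2.58, AT4G02550 2.57, ATL64 2.49, AT2G39980 2.35, AT5G07650 2.35, AT2G22122 2.31, AT3G14260 2.29, GSTF2 2.12, CYP79F2 2.08, PRR7 2.00, MAM3 1.6, SOT18 1.45, PHO1 1.42, EBF2 1.1, ELF4 1.08 and JAR1 0.79. Those below 0 were AT5G12090 -5.43, PER34 -4.94, MLP28 -4.62, HSP18.2 -4.33, cPT4 -3.74, ASY2 -3.70, HSP23.6 -3.51, ACA13 -3.09, AT2G13965 -2.84, FBA2 -2.68, LHCB1.3 -2.40, GALT6 -2.33, AT5G49440 -2.29, RCA -1.96, ERDJ3A -1.87, PSBO1 -1.78, ABCG40 -1.75 and HSP17.8 -1.67. The response of ICT1-8098 exceeded that of ICT1-2, on the log2 scale, by CML37 3.14, GRX480 2.26, OXI1 1.65 and ZAT12 1.99.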

How the results depend on the processing

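Of the 40 genes that the naming rule selected and that passed, 11 kept their call under all 27 alternatives (AT5G12090 was not tested at 5 CPM and kept it under the other 26), and of 39 selected that did not pass, 37 kept their sign. The exceptions were ZAT12 (0.01 with total-read scaling, 0.05 with array weights, and 0.01, 0.12, 0.05 and 0.11 without ICT1-8098_200 replicate 2, Col_200 replicate 4, Col_NT replicate 3 and Col_NT replicate 4) and RPS30A (-0.01 with the replicate block and -0.05 without Col_NT replicate 5), whose values with 1 library left out ran from -0.44 to 0.12 and from -0.05 to 0.32. For the mean interaction, only the groups of the contrast gave 87 genes, the replicate block 321, array weights 447 and voom on recovered reads, chosen after seeing the data, 60. For ICT1-2 these gave 32, 305, 349 and 53. For ICT1-8098 they gave 6 with only the groups of the contrast, 675 with array weights and 15 with voom. The difference between lines passed for 16 genes with total-read scaling, 12 with no filter, 11 with a pseudocount of 0.5, 1 with only the groups of the contrast, 16 with the replicate block, 1047 with array weights and 0 with voom, beside 4 by limma with 1765 at an unadjusted p under 0.05. Requiring an absolute log2 difference above 1 left 1703 genes in DMSO, 2251 at 200 µM and 2655 at 400 µM, and array weights gave 6747 in DMSO. Members of the gene lists called numbered 17, and 7 with only the groups of the contrast, 31 with array weights and 7 with voom. Leaving out 1 library at a time gave 66 to 720 genes for the mean interaction, 29 to 393 for ICT1-2, 29 to 369 for ICT1-8098, 0 to 20 for the difference between lines, 2275 to 3874 in DMSO, 3554 to 7144 at 200 µM, 3895 to 5560 at 400 µM and 5 to 34 for the lists. The cause of these shifts was not tested. The block used replicate numbers that did not pair the libraries. The planned edgeR and DESeq2 fits were not run, since the deposited values are packed normalized counts. At 9503924 reads, 3 reads are 0.316 CPM, and differences under that level were not detectable.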
